A study of Mus musculus with 12 samples.

Results

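The genes Rassf1, Stk11, Apc, Tsc1 and Tsc2, which encode 5 tumour suppressor proteins, were examined for DNA copy number in cultured cells of malignant peripheral nerve sheath tumours (MPNST), an aggressive sarcoma of the Schwann cell lineage. The members were chosen by name, as every probe that the array files label with one of these genes. This gave 9 probes (1 each for Rassf1 and Stk11, 3 for Apc, 2 each for Tsc1 and Tsc2) of 40726 autosomal probes, and 5 of 19959 autosomal genes. All tumours came from P0-GGFβ3 transgenic mice, in which the growth factor GGFβ3, a form of neuregulin-1, is made in Schwann cells under the promoter of myelin protein zero (P0). The mice of 7 tumours were C57BL/6J x SJL/J, called mixed here (A18, A202, A292, A382, A390, A394 and 231 Trig). Those of the other 4 were C57BL/6J (B76, B86, B91 and B96). DNA of each culture (Cy5) was hybridised on a 2-colour oligonucleotide array together with reference DNA (Cy3) from wild-type C57BL/6J Schwann cells. There was no dye swap, so effects of dye and of tumour cannot be told apart. A382 was on 2 arrays, at passages 8 and 9, and their mean is used as 1 tumour. The arrays measured genomic DNA, so the identity of the cultured cells could not be checked against markers, and cells without a change would dilute a change in the others.

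Tumour suppressors of this kind restrain growth at several points. The Rassf1 protein binds Ras-family GTPases, Mst kinases and microtubules, and in human tumours its gene is often silenced by promoter methylation. The kinase LKB1, encoded by Stk11, activates AMPK when energy is low, and AMPK in turn acts on the complex of hamartin (Tsc1) and tuberin (Tsc2). That complex switches off the GTPase Rheb, the activator of the growth-promoting kinase complex mTORC1. The Apc protein is a scaffold on which β-catenin is marked for destruction, which keeps Wnt signalling low. Methylation and point mutation leave copy number as it is and are not measured by these arrays.

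Since a copy number ratio rests on the hybridisation of single oligonucleotides, the probes behind the results are shown here 5′ to 3′ as the array files give them, with the longest run of a single base in capitals. All positions are in mm9, the build of the files, and exon or intron positions are not given because no annotation of that build was used.
Rassf1 probe: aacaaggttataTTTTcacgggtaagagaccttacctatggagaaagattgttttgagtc
Stk11 probe: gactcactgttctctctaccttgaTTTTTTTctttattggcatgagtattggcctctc
Tsc1 probe 1: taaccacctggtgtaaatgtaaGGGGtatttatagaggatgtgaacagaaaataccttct
Tsc1 probe 2: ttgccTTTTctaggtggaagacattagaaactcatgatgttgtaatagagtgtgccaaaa
Tsc2 probe 1: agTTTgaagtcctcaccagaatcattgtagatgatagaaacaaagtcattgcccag
Tsc2 probe 2: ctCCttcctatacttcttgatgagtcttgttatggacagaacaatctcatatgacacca
The Rassf1 probe lies at chr9:107464157-107464216 and the Stk11 probe at chr10:79586000-79586057. The Tsc1 probes lie at chr2:28498489-28498548 and chr2:28526376-28526435, and the Tsc2 probes at chr17:24734850-24734905 and chr17:24759533-24759591. The files record 1 perfect genome match for each of the 9 probes, and all 9 were well above background on 12 of 12 arrays. Apart from probe 2 of Apc, their GC share was 35% to 39.7%, against a median of 36.7% over autosomal probes. The Stk11 probe holds a run of 7 T, a length that 4.08% of autosomal probes reach. Probe 2 of Apc has a GC share of 20%, which is matched or undercut by 0.427% of autosomal probes.

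Values are log2 ratios of tumour over reference, with each array centred on its autosomal median, so 0 is the level of the average autosomal probe. A gene or probe is said to have risen or fallen where its mean over 11 tumours was at least 0.2 in size and had a limma p under 0.05 after Benjamini-Hochberg adjustment. Each probe was also set against its neighbourhood, the median of the 20 nearest probes of other genes (10 on each side), and against its chromosome median. A change of a stretch of DNA that covers most of the 20 probes moves the neighbourhood, whereas an offset confined to a probe does not. A change covering only a few of these probes need not move their median. Where a gene has a single probe, such a short change could not be told from an offset of that probe. The labels do not say whether each tumour came from its own mouse, so p-values measure the spread between these cultures. The reference DNA was on every array, and its own spread is not in any test.

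Of the 5 genes, Rassf1 and Stk11 fell and none rose, while Apc, Tsc1 and Tsc2 did not pass. Among all autosomal genes 15.5% fell and 18% rose (3085 and 3599 genes), so 2 of 5 is a small count beside a common call. With each array centred on its mode instead, 2342 genes fell and 4176 rose. Of the 9 probes the same 2 fell and none rose, beside 17.2% and 20.3% of all probes. Of the 5 neighbourhoods none passed in either direction, whereas 2.22% of neighbourhoods over the autosomes fell and 10.2% rose. The limma adjusted p was under 0.05 at 3 of the 5 neighbourhoods, and only their means kept them from passing, being below the size minimum. They were those of Stk11 (0.0203), Apc (0.000442) and Tsc1 (0.0439). The 2 genes that fell were each read by 1 probe.

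**Figure D1:**
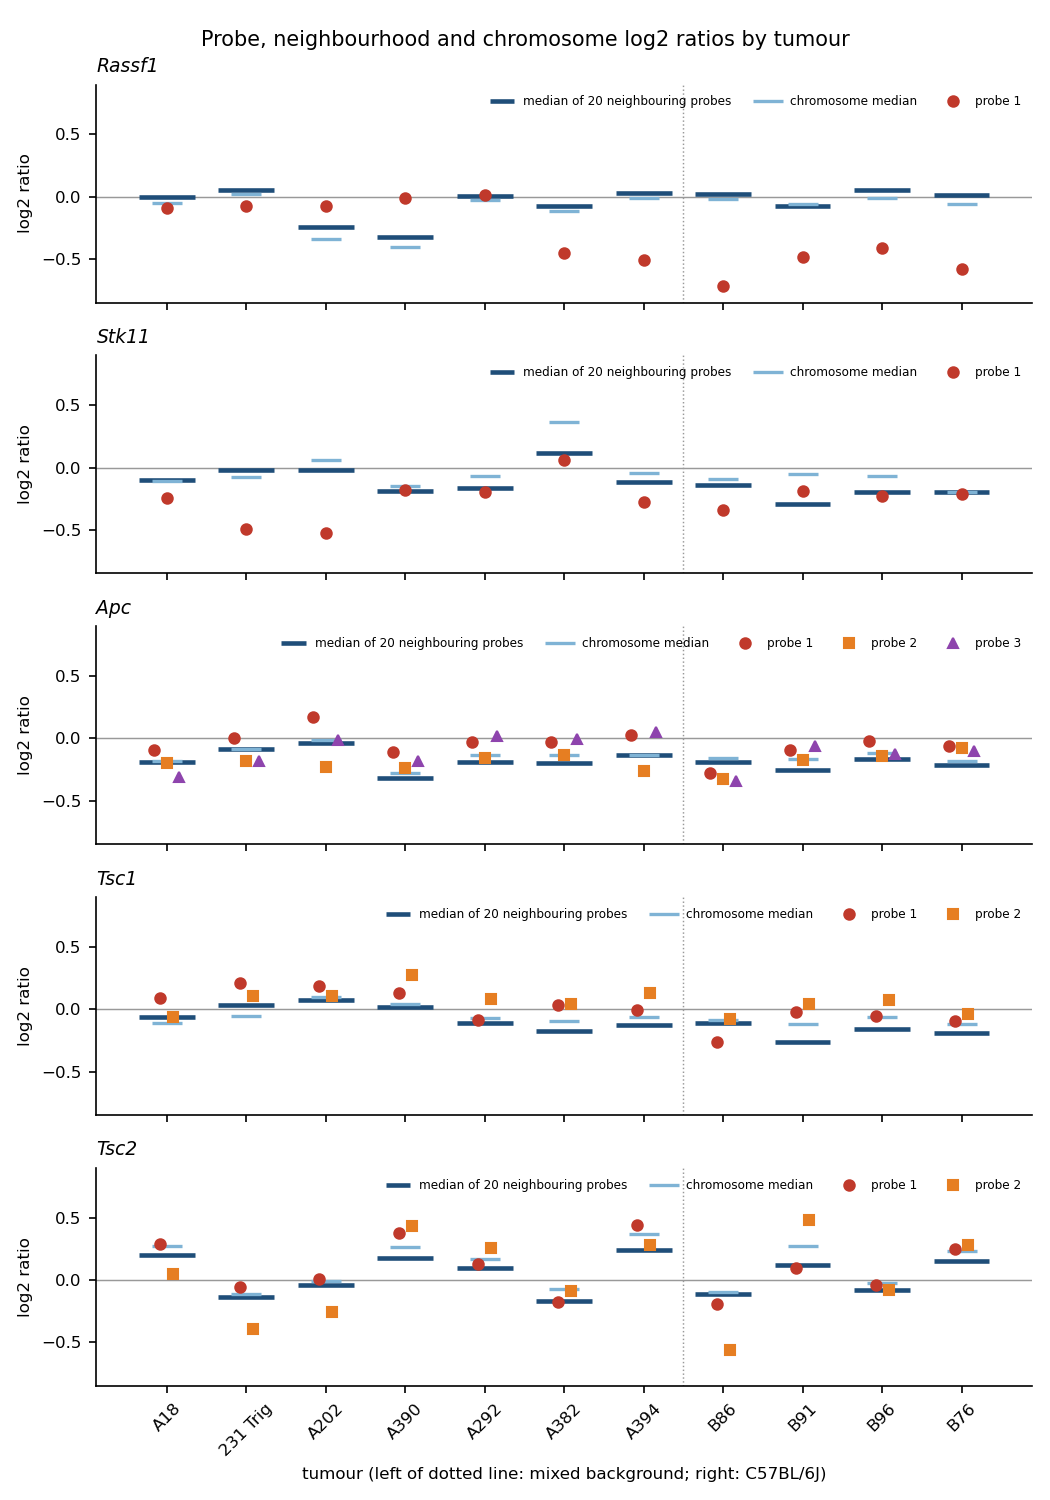
Log2 ratio (vertical axis) in each of the 11 tumours (horizontal axis) for every probe of the 5 genes (symbols), the median of the 20 neighbouring probes (dark bars) and the chromosome median (light bars). In 6 tumours the Rassf1 probe has offsets of -0.74 to -0.37 from its neighbourhood, none past 3 robust SD of such differences. It lies above its neighbourhood in A202 and A390, whereas the Tsc2 probe 1 follows its neighbourhood from tumour to tumour.

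Rassf1 was below the reference in 10 of 11 tumours, by amounts that differed widely. The 7 mixed tumours ran from -0.51 in A394 through a median of -0.08 to 0.01 in A292. The 4 C57BL/6J tumours stood at -0.72 (B86), -0.48 (B91), -0.41 (B96) and -0.58 (B76). All 4 C57BL/6J tumours and the mixed tumours A382 (-0.45) and A394 (-0.51) were at -0.2 or below, and the other mixed tumours lay between -0.09 and 0.01. The mean was -0.31 ± 0.26 (SD, n = 11) and fell in limma (adjusted p 0.00163). Both arrays of A382 gave a low value, -0.49 at passage 8 and -0.41 at passage 9. In the 7 mixed tumours alone the mean of -0.17 did not pass (limma adjusted p 0.0704, range over the alternatives 8.14e-05 to 0.0704).

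The stretch of DNA around Rassf1 was low in other tumours than the probe. Its 20 probes span 306 kb and 15 genes, and their median averaged -0.05 ± 0.13 (SD, n = 11, limma adjusted p 0.328). It was lowered, to -0.2 or below, in A202 (-0.24) and A390 (-0.33) and lay between -0.08 and 0.05 in the other 9 tumours. Stretches this low made up 10.3% of all probe and tumour pairs. A202 and A390 were also the 2 tumours with loss segments over Rassf1, each along all of chromosome 9, at -0.34 and -0.41. Segments called as loss held 6.99% of probe and tumour pairs, and segments called as gain 19.1%. In these 2 tumours the Rassf1 probe was near 0, at -0.07 and -0.01, with offsets of 0.17 and 0.32 above its neighbours. The lowest offsets were those of B86 (-0.74), B76 (-0.59) and A394 (-0.54), whose neighbourhoods were at 0.02, 0.01 and 0.03. Chromosome 9 averaged -0.10 ± 0.14 (SD, n = 11), below 0 in 10 of 11 tumours. It passed an exact sign-flip test (adjusted p 0.0155), but not with centring on the mode (-0.07, adjusted p 0.413). The Rassf1 stretch was above its chromosome median in 10 of 11 tumours, by 0.05 ± 0.03 (SD, n = 11, limma adjusted p 0.00189), below the size minimum.

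Over the 11 tumours the probe differed from its neighbourhood by -0.26 ± 0.33 (SD, n = 11) and this offset fell in limma (adjusted p 0.0183). Offsets that fell made up 15.2% of autosomal probes and those that rose 13.7%, and 9.74% of probes had an offset as low or lower. With the slide as a random block the offset of -0.28 did not pass (limma adjusted p 0.0650), nor did that of -0.09 in the mixed tumours alone (0.410). Over its alternatives the adjusted p ran from 0.000841 to 0.410. Across the tumours the probe value and its neighbourhood correlated at Pearson's r -0.42 and Spearman's rho -0.35 (n = 11), and r was 0.18 without the 2 tumours whose neighbourhood was farthest from the median. These points share the reference DNA and, in part, a slide.

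The 2 channels behind the ratio differed in how much they varied. Signal at the Rassf1 probe, after adjustment for GC share and relative to its neighbours, was steady in the reference channel at -0.52 ± 0.06 log2 (SD, n = 12 arrays). In the tumour channel it ran from -1.39 in B86 to -0.05 in A202, with B76 at -1.10, A394 at -0.99 and A390 at -0.19. The genes on either side of the probe did not pass. Zmynd10, which is needed for assembly of ciliary dynein, averaged -0.03 ± 0.13 at a gap of 14.4 kb, and Tusc2 averaged 0.14 ± 0.19 at 1.97 kb (SD, n = 11). In the C57BL/6J tumours Zmynd10 was at -0.02 and Tusc2 at 0.16.

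**Figure D2:**
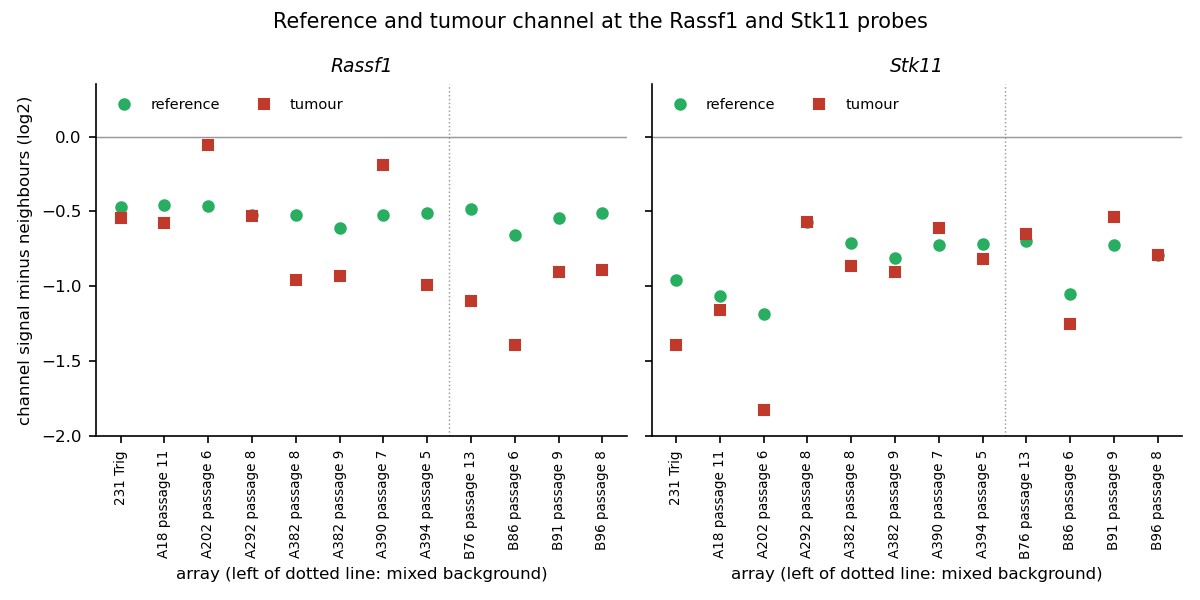
Signal of the reference (circles) and tumour (squares) channel at the Rassf1 and Stk11 probes on each of 12 arrays, in log2 relative to the 20 neighbouring probes after adjustment for GC share. At Rassf1 the reference channel stays between -0.66 and -0.46 while the tumour channel spans -1.39 to -0.05, and at Stk11 both channels are lowest on the 4 arrays of slide 1 (A18, 231 Trig, A202 and B86).

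Compared between backgrounds, Rassf1 averaged -0.17 ± 0.21 in mixed (SD, n = 7) and -0.55 ± 0.13 in C57BL/6J tumours (SD, n = 4), and the groups overlapped in A382 and A394. The difference of 0.38 had a limma p of 0.00455 and an adjusted p of 0.425, so it did not pass over all genes. That comparison called 0.015% of genes higher in mixed tumours and 0.0% lower. The difference had the same sign in all 16 alternatives, from 0.32 to 0.46. None of the other 4 genes passed either, in limma or at an unadjusted p under 0.05, with differences from -0.02 at Stk11 to 0.14 at Tsc1. The offset of the Rassf1 probe differed by 0.46 (limma adjusted p 0.313), and none of the 9 offsets or 5 neighbourhoods passed between backgrounds, where 0.0859% of offsets were called higher and 0.0417% lower in mixed tumours and 0% of neighbourhoods either way. On slide 1, B86 stood at -0.72 against -0.09 to -0.07 in the 3 mixed tumours. On slide 2, B91 stood at -0.48 against -0.49 to 0.01 on the 3 mixed arrays, with A382 the lowest of these. On slide 3, the 2 C57BL/6J arrays (-0.58 and -0.41) and the 2 mixed arrays (-0.51 and -0.41) covered about the same range. Those mixed arrays were A394 and the second array of A382.

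Stk11 was the more even of the 2 decreases. The 7 mixed tumours ran from -0.53 in A202 through a median of -0.25 to 0.06 in A382, and the 4 C57BL/6J tumours stood at -0.34 (B86), -0.18 (B91), -0.23 (B96) and -0.21 (B76). All tumours but A382 were below 0, and the backgrounds overlapped fully. The mean was -0.26 ± 0.16 (SD, n = 11) and fell in limma (adjusted p 0.000385). The stretch around the gene was below 0 in the same 10 tumours. This neighbourhood, 372 kb with 16 genes, averaged -0.12 ± 0.11 (SD, n = 11, limma adjusted p 0.0203), below the size minimum, and 16 of its 20 probes were below 0. The offset of the probe from it was -0.14 ± 0.19 (SD, n = 11, limma adjusted p 0.0341), also below the size minimum.

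The offset at Stk11 moved with the slide. On slide 1, which was read on another scanner than the rest, the 4 arrays averaged -0.40 ± 0.13 in value and -0.33 ± 0.18 in offset (SD). On slide 2 the 4 arrays averaged -0.13 and 0.004, and on slide 3 they averaged -0.16 and -0.06. Both backgrounds were on every slide. Without slide 1 the mean was -0.17, below the size minimum (limma adjusted p 0.00838, range over the alternatives 0.00011 to 0.0146). Noise between neighbouring probes was 0.204 to 0.246 on slide 1 and 0.180 to 0.208 on the other slides. The part of slide, scanner and noise in the Stk11 value was not tested.

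No tumour had a segment at Stk11 past 0.2 in either direction. Short segments over the gene were found in A382, where 2.57 Mb stood at 0.17 inside a chromosome 10 with a median of 0.36, and in B91, where 5.53 Mb stood at -0.16. Relative to the chromosome median, the neighbourhood was lowest in the same tumours, at -0.24 in A382 and -0.25 in B91. The mean of this difference was -0.08 ± 0.10 (SD, n = 11, limma adjusted p 0.0122), below the size minimum. Past that minimum, 0.152% of neighbourhoods over the autosomes were lower than their chromosome and 0.295% were higher. Only B91 had a neighbourhood of Stk11 called lowered by its own value (-0.29), and there the probe itself was 0.11 above it. Of the flanking genes, Sbno2 at a gap of 55.9 kb fell by 0.21 ± 0.27 (SD, n = 11, limma adjusted p 0.0196), at -0.50 in C57BL/6J and -0.05 in mixed tumours. Dos at 10.6 kb was at -0.14 ± 0.08 (SD, n = 11) and did not reach the size minimum.

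**Figure D3:**
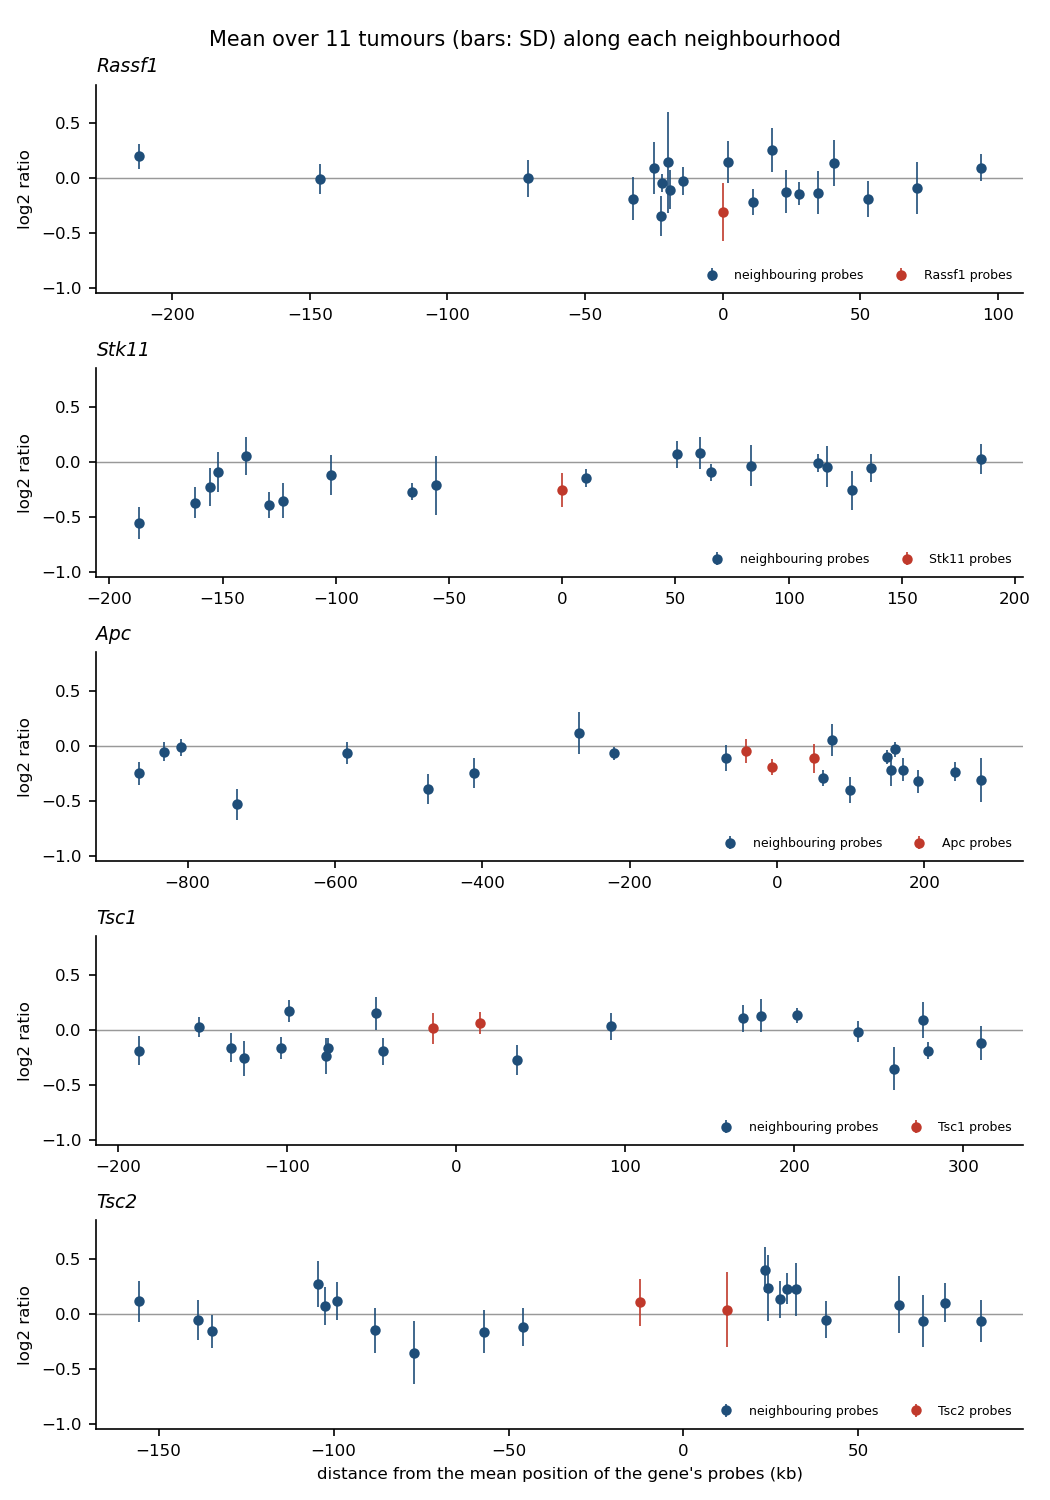
Mean log2 ratio over 11 tumours (vertical axis, bars are SD) of the probes of each gene (red) and of its 20 neighbouring probes (blue), by distance in kb from the gene. Beside Rassf1 1 of 20 neighbours is lower than the gene, beside Stk11 6, and the neighbours on one side of Stk11 reach -0.56.

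For the complex downstream of LKB1 and AMPK, neither gene passed. Tsc1 averaged 0.04 ± 0.11 (SD, n = 11, limma adjusted p 0.447). The mixed tumours ran from -0.002 in A292 through a median of 0.07 to 0.21 in A390, and the C57BL/6J tumours stood at -0.17 (B86), 0.01 (B91), 0.01 (B96) and -0.07 (B76). In B86 probe 1 read -0.26. Its signal there was -2.24 log2 in the reference and -2.53 in the tumour channel, relative to its neighbours. On the other arrays these ran from -0.97 to -0.67 and from -0.93 to -0.67. The part of this low signal in the B86 value was not tested. The 2 groups overlapped little, and the difference of 0.14 had a limma adjusted p of 0.493. Its neighbourhood, 499 kb on chromosome 2, averaged -0.10 ± 0.10 (SD, n = 11, limma adjusted p 0.0439) and was below the size minimum. Both probes stood slightly above it, by 0.11 ± 0.10 (limma adjusted p 0.00764) and 0.16 ± 0.11 (0.000654, both SD, n = 11), less than the size minimum.

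The one loss segment at Tsc1 was in B91. It covered 8.67 Mb and 381 probes (chr2:24646906-33320075) at -0.23, with the neighbourhood at -0.26, a difference of -0.15 from the chromosome median. The Tsc1 probes in this tumour read -0.02 and 0.05, with offsets of 0.24 and 0.31 above their neighbourhood. Each probe was above its neighbourhood in 10 of 11 tumours, with mean offsets of 0.11 and 0.16. Both offsets in B91 were under 0.65, the limit used below for an offset of a single probe on this array. Whether the gene itself shared the decrease of the segment was not tested. The flanking gene Spaca9 fell by 0.27 ± 0.14 (SD, n = 11, limma adjusted p 0.000106) in 11 of 11 tumours, whereas Gfi1b, a transcriptional repressor of blood cells, was at -0.02 ± 0.13 (SD, n = 11).

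Tsc2 varied from tumour to tumour about as widely as Rassf1. Its mean was 0.07 ± 0.26 (SD, n = 11, limma adjusted p 0.414). Without slide 1 it was 0.19, under the size minimum (limma adjusted p 0.0435, range over the alternatives 0.0435 to 0.863), without B86 it was 0.11 and without A390 0.04. The mixed tumours ran from -0.22 in 231 Trig through a median of 0.17 to 0.40 in A390, and the C57BL/6J tumours stood at -0.37 (B86), 0.29 (B91), -0.06 (B96) and 0.27 (B76). The groups overlapped over most of their ranges. The chromosome 17 medians ran from -0.11 in 231 Trig to 0.37 in A394. Probe 1 correlated with its neighbourhood at r 0.95 and rho 0.95 (n = 11), and r was 0.95 without the 2 farthest tumours. Probe 2 correlated with it at r 0.80 and rho 0.75 (n = 11), with r 0.80 without the 2 farthest, and with probe 1 at r 0.75 and rho 0.78, with r 0.67 without the 2 farthest. The neighbourhood in turn correlated with the chromosome median at r 0.98 and rho 0.92 (n = 11), or r 0.98 without the 2 farthest. Neighbouring probes share the array and the reference, so these values describe the arrays as well as the tumours.

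The stretch around Tsc2 was raised in A18 (0.20) and A394 (0.24) and lowered in none, while 19.4% of all probe and tumour pairs had a raised stretch. In both tumours a gain segment covered the gene, the whole of chromosome 17 in A18 at 0.26 and 12.1 Mb in A394 at 0.28. In A390, B91 and B76, segments of 12.8 to 13 Mb stood at 0.16 to 0.19, under the call. Relative to its chromosome, the Tsc2 stretch was lower in 11 of 11 tumours, by a mean of -0.07 ± 0.04 (SD, n = 11, limma adjusted p 0.000222), which is below the size minimum. The flanking genes went different ways. Nthl1, which encodes a DNA repair glycosylase, rose by 0.25 ± 0.18 (SD, n = 11, limma adjusted p 0.000768), while Pkd1, the polycystin-1 gene, was at -0.14 ± 0.18 (SD, n = 11) and did not reach the size minimum.

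Probe 2 of Tsc2 was less steady than probe 1. It ran from -0.56 in B86 to 0.48 in B91, both C57BL/6J tumours. Its slide means were -0.29 on slide 1, 0.28 on slide 2 and 0.10 on slide 3 (4 arrays each), against 0.01, 0.12 and 0.11 for probe 1. Its signal was also low, at -1.93 ± 0.15 log2 in the reference and -1.92 ± 0.15 in the tumour channel relative to its neighbours (SD, n = 12 arrays), where 1.89% and 2.31% of probes were as low. Without slide 1 its value of 0.23 passed (limma adjusted p 0.0290, range over the alternatives 0.0290 to 0.989). The part of slide and signal in the spread of Tsc2 was not tested.

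Apc was slightly below the reference in 11 of 11 tumours, and so was its chromosome. The gene averaged -0.12 ± 0.09 (SD, n = 11, limma adjusted p 0.0137), below the size minimum. The mixed tumours ran from -0.20 in A18 through a median of -0.06 to -0.02 in A202, and the C57BL/6J tumours stood at -0.32 (B86), -0.11 (B91), -0.10 (B96) and -0.08 (B76). B86 stood apart, and without it the mean was -0.10. The 3 probes start at 34388003, 34423622 and 34480197 on chromosome 18 and averaged -0.05, -0.19 and -0.11, and only probe 2, the one poor in GC, was below 0 in all 11 tumours. Its value was just under the size minimum and fell with normexp background correction (-0.20, limma adjusted p 0.00277), with loess on GC (-0.23, 3.69e-05) and in mixed tumours alone (-0.20, 0.00689), with a range over the alternatives of 3.69e-05 to 0.0623.

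The neighbourhood of Apc averaged -0.18 ± 0.08 (SD, n = 11, limma adjusted p 0.000442) and chromosome 18 averaged -0.14 ± 0.07 (SD, n = 11), each below 0 in 11 of 11 tumours. The chromosome passed a two-sided exact permutation test that flips signs (p = 0.000977, the smallest that 11 tumours can give, adjusted over 19 autosomes 0.00371). The stretch was lowered in A390 (-0.32), B91 (-0.25) and B76 (-0.21). In all 11 tumours 1 segment covered the whole of chromosome 18, and it was called as loss in A390 alone, at -0.28. In the reference channel, chromosome 18 stood at 0.09 ± 0.02 log2 (SD, n = 12 arrays) above the array after adjustment for GC share, and in the tumour channel at -0.10 ± 0.08. The part of the reference level in the even decrease was not tested. Beside Apc, the signal recognition particle gene Srp19 fell by 0.29 ± 0.07 (SD, n = 11, limma adjusted p 4.70e-06), and the cDNA AK051754 was at -0.07 ± 0.06 (SD, n = 11).

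**Figure D4:**
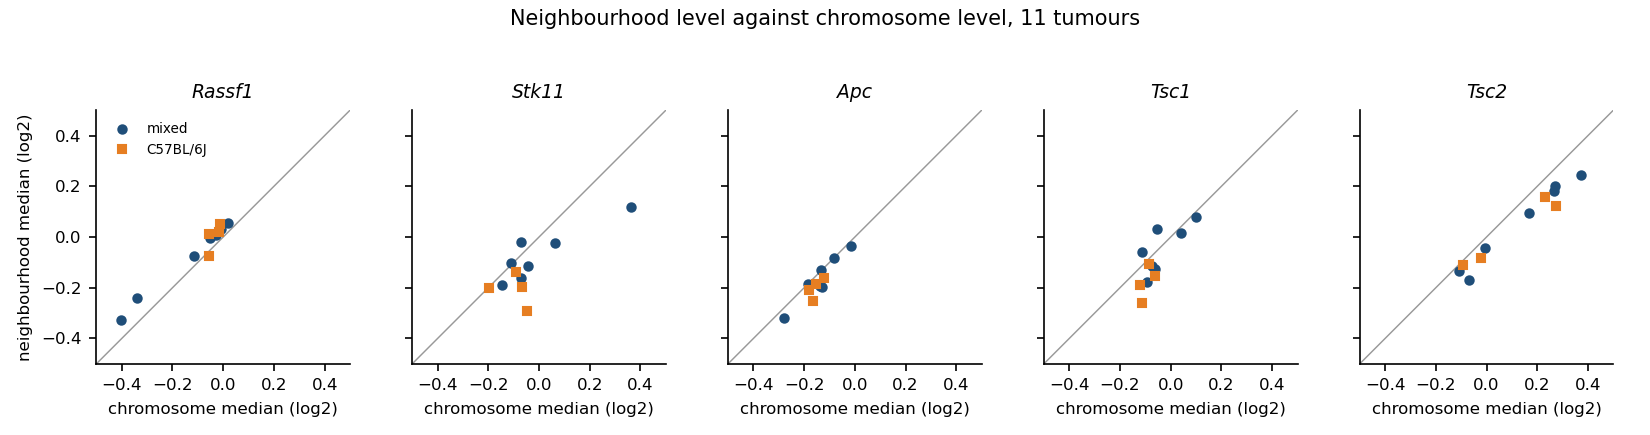
Median of the 20 neighbouring probes (vertical axis) against the chromosome median (horizontal axis) in log2, for 7 mixed (circles) and 4 C57BL/6J tumours (squares). The line marks equal values. The Rassf1 stretch is at its lowest in A202 and A390, where chromosome 9 was at -0.34 and -0.40. The Stk11 stretch lies farthest below the line in A382 and B91. Of 11 points, 11 lie below the line for Tsc2, 10 for Apc, 9 each for Stk11 and Tsc1, and 1 for Rassf1.

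To tell an offset of a single probe from a change of a stretch in each tumour, a probe was said to stand off where it differed from its neighbourhood by more than 3 robust SD of such differences on that array, which was 0.58 to 0.78 log2. None of the 9 probes stood off in any of the 11 tumours, beside 4.36% of autosomal probes that did so downwards and 3.07% upwards in 1 or more tumours. The nearest cases were Rassf1 in B86, at -0.74 where a difference of 0.78 was needed, in B76 (-0.59, 0.64 needed) and in A394 (-0.54, 0.58 needed).

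**Figure D5:**
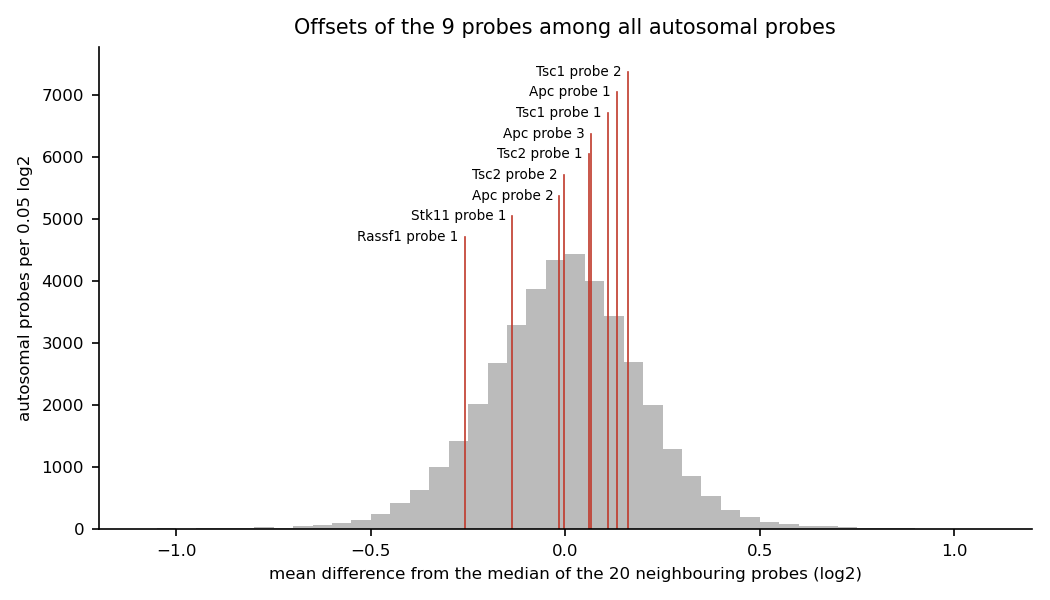
Number of autosomal probes (vertical axis, bars per 0.05 log2) by their mean difference from the median of 20 neighbouring probes over 11 tumours (horizontal axis), with the 9 probes marked by red lines. Rassf1 (-0.26) lies farthest out, with 9.74% of probes at or below it, and the other 8 lie between -0.14 and 0.16.

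Among 20 measured genes of the LKB1, AMPK, TSC and mTORC1 list, 5 rose, 3 fell and 12 did not pass. Over all autosomal genes 18% rose and 15.5% fell. The list median was -0.10 against -0.01 over all genes. The 3 highest, Strada (0.72 ± 0.20), which encodes the pseudokinase partner of LKB1, the mTORC1 subunit gene Rptor (0.55 ± 0.31) and the S6 kinase gene Rps6kb1 (0.49 ± 0.20, all SD, n = 11), lie on chromosome 11. On chromosome 11 the reference channel itself stood at -0.53 ± 0.04 log2 and the tumour channel at 0.16 ± 0.17 (SD, n = 12 arrays), after adjustment for GC share. The part of the low reference level in these rises was not tested. Off that chromosome Deptor, an inhibitor of mTOR, rose by 0.40 ± 0.21 and Cab39, the scaffold of LKB1, by 0.20 ± 0.25 (SD, n = 11). The AMPK subunit gene Prkab1 fell by 0.37 ± 0.16 and the translation repressor gene Eif4ebp1 by 0.36 ± 0.24 (SD, n = 11), while their neighbourhoods averaged -0.02 and -0.09. Ddit4, a stress-induced inhibitor of mTORC1, fell by 0.31 ± 0.19 (SD, n = 11). The targets Rheb (-0.12 ± 0.13) and Mtor (-0.12 ± 0.10, SD, n = 11) did not reach the size minimum.

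Of 12 measured genes that work with Apc or downstream of it, 4 rose, 3 fell and 5 did not pass, with a median of -0.0003. These counts stand beside 18% of all autosomal genes that rose and 15.5% that fell. Tcf7 (0.68 ± 0.20), a transcription factor that binds β-catenin, and Fbxw11 (0.63 ± 0.19, SD, n = 11), which marks it for destruction, rose, and like Axin2 they lie on chromosome 11. The part of the low reference level of that chromosome in these rises was not tested either. The kinase gene Csnk1a1, which shares chromosome 18 with Apc, fell by 0.51 ± 0.11 (SD, n = 11, limma adjusted p 3.81e-08) and the β-catenin gene Ctnnb1 by 0.40 ± 0.13 (SD, n = 11, limma adjusted p 1.25e-06). The neighbourhoods of those 2 averaged -0.13 and -0.14. Of 15 genes of the Rassf family and the Mst and Lats kinases, only Rassf4 rose (0.26 ± 0.19) and only Lats1 fell (-0.33 ± 0.33, SD, n = 11). The same shares over all genes apply to this list.

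The genes next to Rassf1 correspond to a cluster on a human chromosome arm that is often lost in human tumours. Of 12 measured, Hyal1 rose (0.25 ± 0.20) and Hyal2, a hyaluronidase gene like it, fell (-0.22 ± 0.12, SD, n = 11), while 10 did not pass and the median was -0.05. Over all autosomal genes 18% rose and 15.5% fell. The mean of Rassf1 was lower than the gene means of all 12, the next being Hyal2, but 1 of the 3 probes of Cyb561d2, which averaged -0.08 as a gene, was lower still at -0.35. Without A202, or with centring on the mode, Hyal2 no longer passed.

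By Pearson's r over the 11 tumours, the genes on other chromosomes whose values were most like those of Rassf1 were the cDNA AK005811 (r 0.96, rho 0.84) and the ribosomal protein gene Rps3 (r 0.92, rho 0.82). For Stk11 they were Ttc39b (r 0.94, rho 0.81) and Plekhf2 (r 0.90, rho 0.75), and on its own chromosome AK085456 (r 0.98, rho 0.86) and AK015963 (r 0.91, rho 0.89). On chromosome 9, AF159593 (r 0.86, rho 0.86) and AK016613 (r 0.85, rho 0.77) were most like Rassf1. Tsc2 was most like Lrpprc (r 0.99, rho 0.97) and Enpp5 (r 0.99, rho 0.99) on chromosome 17 and Tnrc18 (r 0.93, rho 0.95) and AK076405 (r 0.92, rho 0.96) elsewhere. Tsc1 was most like the agouti gene (r 0.94, rho 0.94) and AK038413 (r 0.92, rho 0.82) on chromosome 2 and the receptor gene Kdr (r 0.97, rho 0.99) and Hcar1 (r 0.95, rho 0.92) elsewhere. For Apc they were Arhgap12 (r 0.94, rho 0.75) and AK220381 (r 0.93, rho 0.89) on chromosome 18 and AK053266 (r 0.89, rho 0.74) and Ndufb4 (r 0.87, rho 0.62) elsewhere. For each member these are the 2 highest correlations on its own chromosome and the 2 highest elsewhere, picked from 19959 genes. They rest on 11 points that share a reference, and are given as a description.

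The 2 arrays of A382, at passage 8 on slide 2 and passage 9 on slide 3, gave a limited measure of precision. Between them the 9 probes differed by -0.08 to 0.09, with a robust SD over all autosomal probes of 0.0891. A382 was not on slide 1, so differences of that slide from the others are not part of this measure.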

How the data were processed

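Cultured tumour DNA and reference DNA were co-hybridised on 12 arrays of oligonucleotide probes 45 to 60 bases long. Agilent Feature Extraction 9.5 and mm9 are named in the submitters' processing notes. Each deposited value is a log10 ratio, tumour over reference, after background subtraction, detrending and linear dye normalisation, per the file headers. The deposited files also give each channel's brightness as intensity, per the file headers. The deposited value table did not differ from these log10 ratios (largest difference 0).

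Ratios were turned into log2, control spots dropped, flagged spots set to missing, spots of a probe averaged and arrays centred on the autosomal median. This left 42404 probes with a median autosomal spacing of 21.5 kb. Of the probes with a RefSeq accession, 28951 of 29337 matched and took the current gene name. At least 99.4% of probes per array were well above background and no spot was saturated, and the number of arrays limits the precision. No per-sample column was left out.

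All tables were fitted with limma 3.58.1 in R 4.3.3 and adjusted over the whole table. Chromosome medians had an exact sign-flip test. Profiles were segmented by penalised least squares (penalty 40 noise variances, at least 5 probes, called at 0.2). Scripts ran in Python 3.11.15 with numpy 2.4.6, pandas 2.3.3, statsmodels 0.14.6 and matplotlib 3.10.9, and the fits and the segmentation were tested on simulated data. Genes named were all 5 members, the 2 highest and 2 lowest passing genes of each list, the nearest gene on each side, and the 2 most correlated genes on the same and on other chromosomes. Axin2, Cab39, Ddit4, Deptor, Rps6kb1, Rheb and Mtor were added after their values were seen. The members, lists and tests were chosen with earlier results of these data known. Akt1s1, Rps6kb2, Gsk3a, Rassf8 and Nat6 had no probe under those names, and Amer1 on X was not analysed here. Alternatives covered centring, background correction, intensity and GC trends, flags, dim probes, slides, tumours, passages and neighbourhood size.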

Additional observations from a re-analysis of the deposited data

Results flagged for a closer look

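Among 72 sets of values of one background, 3 had a tumour far from the rest, and chance alone puts about 1 in 20 sets in this class. On chromosome 10, which carries Stk11, the median of A382 was 0.36 while the other 6 mixed tumours lay between -0.14 and 0.06. At Apc, B86 stood at -0.32 among the C57BL/6J tumours, where the others lay between -0.11 and -0.08. At probe 1 of Apc, the offset of B86 from its neighbours was -0.094, against 0.14 to 0.16 in the other 3. B86 was hybridised on slide 1 and its array had the widest noise between neighbouring probes, at 0.246. The part of slide and noise in these values was not tested.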

How the results depend on the processing

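Of 1366 values recomputed under an alternative, 1286 kept their direction and their side of the threshold, and no value that had passed changed direction. Rassf1 fell in 25 of 26 alternatives and Stk11 in 25 of 26. Some alternatives could not change these values, since each gene has a single probe, well above background on every array. They were the deposited value table, the median of a gene's probes and the limit to probes well above background. Others left out a single tumour each. These counts, and the 1286 of 1366, include such repeats and do not count independent checks. Rassf1 did not pass in mixed tumours only (-0.17), where its offset was -0.093, and its offset did not pass with slide as a random block (-0.28). Without slide 1, Stk11 was under the size minimum at -0.17, the offset of Tsc1 probe 2 (0.23) and the Apc neighbourhood (-0.21) passed, and the sign turned for the offsets of Tsc2 probe 2 (0.15) and Apc probe 2 (0.039) and the value of Tsc1 probe 1 (-0.015). In C57BL/6J tumours only, the neighbourhoods of Stk11 (-0.21) and Apc (-0.20) passed, and the sign turned for Tsc1 (-0.054, and -0.11 at its probe 1), the Rassf1 neighbourhood (0.0014) and the offsets of Tsc2 probe 2 (0.011) and Apc probe 2 (0.021). With normexp the Stk11 offset (-0.21) and the Apc neighbourhood (-0.21) passed, and the sign turned for the offset of Apc probe 2 (0.0048) and the strain difference at Tsc1 probe 2 (0.039). With 10 neighbours it turned at Tsc1 for the offset of probe 1 (-0.021), the neighbourhood (0.033) and its difference from the chromosome (0.090). With 40 neighbours it turned for the Apc neighbourhood minus chromosome (0.024) and the offset of Tsc2 probe 2 (0.028). Loess on intensity turned the offset of Tsc2 probe 2 (0.048), and loess on GC (-0.000695) and equal weights (-0.0145) the value of Tsc1 probe 1. Mode centring ended the call on chromosome 9 (-0.067) and on Hyal2 in the cluster list (0 that fell), and turned the strain difference of the neighbourhoods of Tsc2 (-0.018) and Apc (-0.011). With slide as a fixed block that of the offset of Tsc2 probe 2 was 0.0071. The value of Apc probe 2 passed with normexp (-0.202), loess on GC (-0.233) and in mixed tumours only (-0.201), and that of Tsc2 probe 2 without slide 1 (0.225), where the mean of Tsc2 was 0.190. The cause of these moves was not tested.

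When 1 tumour was left out, the mean of Rassf1 ran from -0.34 to -0.27 that of Stk11 from -0.29 to -0.23 and that of Tsc2 from 0.037 (without A390) to 0.11 (without B86). The sign was not fixed for the value of Tsc1 probe 1 (-0.0085 to 0.039), that of Tsc2 probe 2 (-0.0068 to 0.097), and the offsets of Tsc2 probe 2 (-0.041 to 0.040) and Apc probe 2 (-0.031 to 0.0021). Nor was it for the strain differences of Apc (-0.0042 to 0.075), Stk11 (-0.078 to 0.019) and Tsc2 (-0.072 to 0.15), of the offsets of Tsc1 probe 1 (-0.011 to 0.12), Tsc1 probe 2 (-0.079 to 0.013), Tsc2 probe 2 (-0.18 to 0.093) and Apc probe 3 (-0.038 to 0.079), and of the Tsc2 neighbourhood (-0.012 to 0.076). Chromosome 2 (-0.073 to -0.051) passed without A202 (-0.073) or A390 (-0.068) and chromosome 10 (-0.079 to -0.023) without A382 (-0.079). The list of genes beside Rassf1 had 0 to 1 genes that fell, with 0 without A202.

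Segment calls depended on the threshold. At 0.1 in place of 0.2, losses covered Stk11 in 5 tumours, Apc in 10, Tsc1 in 4 and Tsc2 in 3, and gains covered Stk11 in 1 and Tsc2 in 5. At 0.3, losses at Apc and Tsc1 and gains at Tsc2 numbered 0. With a penalty of 20, losses covered Stk11 in 1 tumour and Tsc1 in 2. No paired analysis was possible because the labels give the tumours of both backgrounds no shared replicate numbers. Rassf1 and Stk11 have 1 probe each, so no second probe of the same gene bears on their values.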
